A study of Mus musculus with 12 samples.

Results

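The 9 genes described here encode enzymes and enzyme subunits through which myeloid cells make reactive oxygen, nitric oxide, prostaglandin E2 and itaconate, or consume arginine. They were chosen by name: 4 subunits of the phagocyte NADPH oxidase (Cybb, Cyba, Ncf1 and Ncf4) and 5 single enzymes (Nos2, Arg1, Ptgs2, Ptges and Acod1). All 9 were found among the 55415 genes measured, and all 9 lay among the 13668 genes with enough expression to be tested. Bulk RNA was sequenced from tumours grown in mice from CT26 cells (labelled WT), an established colon carcinoma line that arose in the BALB/c strain. The 12 libraries form groups of 3: Complex 1 alone, radiation alone, Complex 1 with radiation (the combination), and untreated control tumours. The series title describes Complex 1 as a platinum complex activated by X-rays. The sources used here give no dose, no time after treatment, no age of the mice, and no word on whether a sampled tumour lay inside the irradiated field.

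The phagocyte oxidase moves electrons from NADPH to oxygen and so makes superoxide, the start of the oxidative burst of neutrophils and macrophages. Its membrane part pairs the catalytic chain (Cybb) with a stabilising chain (Cyba), and cytosolic subunits, among them the organiser Ncf1 and the phosphoinositide-binding Ncf4, join it on activation. Inducible nitric oxide synthase (Nos2) and arginase (Arg1) compete for arginine and are the classical markers of inflammatory and of wound-healing mouse macrophages. Cyclooxygenase 2 (Ptgs2) makes the prostaglandin H precursor that the synthase Ptges turns into prostaglandin E2, a suppressor of T cells. Acod1 diverts cis-aconitate from the citric acid cycle to itaconate in activated macrophages.

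Total counts per library were 15.6 to 19.1 M (mega counts), and a member gene had 205 to 4824 counts in a library. A count of 3 in a member corresponded to 0.027 to 0.185 FPKM, far under every level of a member given below. Some other genes given below lay near or under it. Levels are in FPKM, counts per kilobase of exon and per mega count. Each change is a log2 fold change with its SE, estimated by edgeR (quasi-likelihood) from the counts, and its p-value was adjusted by Benjamini-Hochberg (BH) over all 13668 genes. A gene is said to rise or fall where its adjusted p is under 0.05. Since the labels name no mouse for a library, the replicate spread behind these p-values may be technical. In 3 libraries values stood apart from their groups. By the mean log2 difference from control over 12 T and NK cell genes, Complex 1 replicate 3 lay at 0.85, against -0.10 and 0.11 in the other Complex 1 libraries. Radiation replicate 2 lay at -0.18, against 0.83 in each of the other radiation libraries. Control replicate 2 had 0.02 FPKM of Xist and 28 counts from Y-linked genes, against 9.2 to 14.2 FPKM and at most 1 count in the other 11 libraries.

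Members of the set rose with each treatment, and none fell in any comparison by this test. Of all tested genes, 0.0951% fell with Complex 1, 5.86% with radiation and 10% with the combination, each against control. In Complex 1 tumours 2 of the 9 genes rose against control (Ncf1 and Ncf4), where 0.717% of all tested genes did. In irradiated tumours 6 of 9 rose (the 4 oxidase subunits, Ptges and Acod1), where 7.39% of all tested genes did. In combination tumours 7 of 9 rose (the same 6 and Nos2), where 11.9% of all tested genes did. The median log2 change of the 9 was 0.46 with Complex 1, 0.62 with radiation and 0.90 with the combination, and that of all tested genes was 0.01, -0.01 and -0.01. These comparisons share the 3 control libraries. The exceptions throughout were Arg1 and Ptgs2, which passed in none of them. Of the members, 6 lay above all controls with Complex 1, 6 with radiation and 7 with the combination, where 11.4%, 17.9% and 23.9% of all tested genes did. The counts with a single treatment depended on single libraries. For Complex 1 the count was 0 without control replicate 2 or Complex 1 replicate 2, and 4 without Complex 1 replicate 1. The member count was also 0 when the Complex 1 and control groups alone were fitted (adjusted p = 0.073 for Ncf1 and 0.057 for Ncf4). Calls over all tested genes moved too, to 4, 25, 236 and 45 in these 4 settings, against 111. For radiation the member count was 3 without control replicate 1, control replicate 2 or radiation replicate 3. Calls over all tested genes were then 899, 1007 and 1153, against 1811. The combination count was 7 or 8 without any 1 library.

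**Figure D1:**
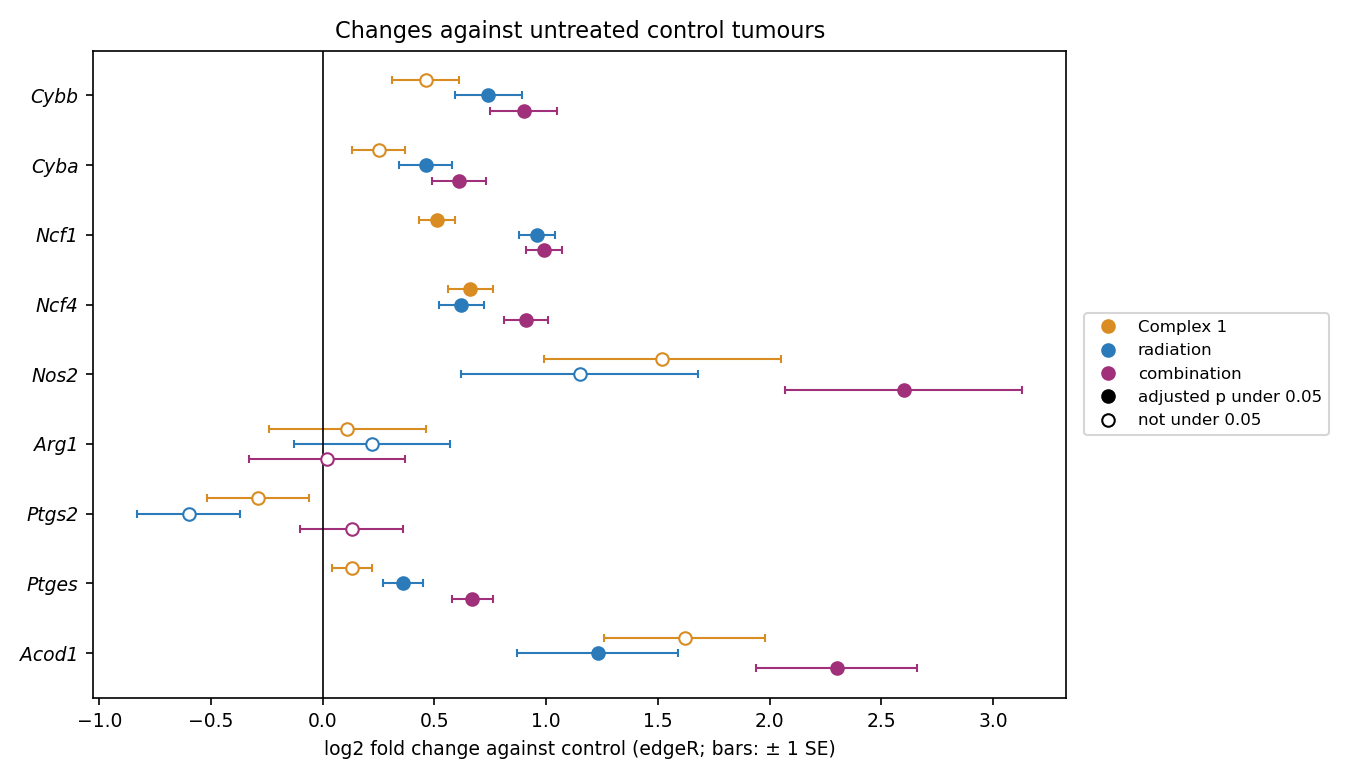
Log2 fold change (x axis) of each gene (y axis) in Complex 1, radiation and combination tumours against control, with bars of 1 SE from edgeR; filled points have an adjusted p under 0.05. The filled combination points run from 0.61 (Cyba) to 2.60 (Nos2), and Arg1 and Ptgs2 have open points only.

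All 4 oxidase subunits rose with radiation and with the combination, and in every treated library of these groups each subunit lay above all 3 controls. With Complex 1 alone the subunits also lay above all controls, and the cytosolic pair, Ncf1 and Ncf4, passed the test.

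Cybb, the catalytic chain (ENSMUSG00000015340, chromosome X, 9301491 to 9354010, mm39, minus strand), had 13.2, 16.7 and 21.3 FPKM in Complex 1 tumours. It had 22.5, 17.4 and 22.2 FPKM in irradiated tumours, 25.1, 24.1 and 21.3 FPKM in combination tumours, and 12.6, 11.6 and 12.3 FPKM in control tumours. The controls were close together, and the Complex 1 libraries spanned the whole gap between the controls and the combination. Cybb rose by 0.74 ± 0.15 with radiation (adjusted p = 0.0064) and by 0.90 ± 0.15 with the combination (adjusted p = 0.001). With Complex 1 the difference was 0.46 ± 0.15 (adjusted p = 0.19). In control replicate 2, the library with almost no Xist, this X-linked gene was at 11.6 FPKM, the lowest of the 12 libraries.

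Cyba, the partner chain (ENSMUSG00000006519, chromosome 8, 123151515 to 123159669, minus strand), was the most abundant of the 9 genes, with a mean above that of 97.5% of all tested genes. It had 89.0, 103 and 124 FPKM in Complex 1 tumours, 113, 116 and 135 FPKM in irradiated tumours, 146, 147 and 117 FPKM in combination tumours, and 84.8, 88.6 and 86.4 FPKM in control tumours. Its changes were the smallest of the subunits. It rose by 0.46 ± 0.12 with radiation (adjusted p = 0.025) and by 0.61 ± 0.12 with the combination (adjusted p = 0.0033), against 0.25 ± 0.12 with Complex 1 (adjusted p = 0.41). The radiation call was lost without control replicate 1, 2 or 3 or radiation replicate 3, with adjusted p-values of 0.08, 0.06, 0.056 and 0.091.

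Ncf1, the organiser subunit (ENSMUSG00000015950, chromosome 5, 134248907 to 134258479, minus strand), separated every pair of groups but irradiated and combination. It had 10.3, 11.8 and 12.3 FPKM in Complex 1 tumours and 15.0, 16.6 and 15.3 FPKM in irradiated tumours. Combination tumours had 16.7, 15.5 and 16.4 FPKM, and control tumours had 7.46, 8.27 and 7.88 FPKM. Irradiated and combination libraries overlapped, Complex 1 libraries lay below both, and controls below those. Ncf1 rose by 0.51 ± 0.08 with Complex 1 (adjusted p = 0.012), by 0.96 ± 0.08 with radiation (adjusted p = 4.2e-05) and by 0.99 ± 0.08 with the combination (adjusted p = 2.8e-05). It was also higher in irradiated than in Complex 1 tumours, by 0.45 ± 0.08 (adjusted p = 0.0057), and it was the only one of the 9 to pass in that comparison, where 3.75% of all tested genes rose. The Complex 1 call was lost without control replicate 2 (adjusted p = 0.054) or Complex 1 replicate 2 (adjusted p = 0.061). Ncf1 overlaps Gtf2ird2 on the other strand, which had 442 to 575 counts a library, and 9.84% of its 31-base sequences also occur in another gene, most often Gtf2ird2. No source used here gives the strand setting of the counting, and the share of Gtf2ird2 reads in Ncf1 was not tested. Gtf2ird2 itself was at 3.88 to 4.92 FPKM in all 12 libraries. Its Complex 1 libraries (4.77, 4.83 and 4.92 FPKM) lay above all controls (4.32, 3.88 and 4.24 FPKM), as those of Ncf1 did. The irradiated and combination libraries of Gtf2ird2 overlapped its controls.

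Ncf4, the phosphoinositide-binding subunit (ENSMUSG00000071715, chromosome 15, 78129001 to 78146780, plus strand), had 15.1, 18.9 and 18.0 FPKM in Complex 1 tumours and 15.8, 16.4 and 18.2 FPKM in irradiated tumours. It had 21.9, 21.6 and 19.2 FPKM in combination tumours and 11.1, 9.71 and 11.4 FPKM in control tumours. In this subunit the single treatments gave like levels, and every combination library lay above both. Ncf4 rose by 0.66 ± 0.10 with Complex 1 (adjusted p = 0.011), by 0.62 ± 0.10 with radiation (adjusted p = 0.0028) and by 0.91 ± 0.10 with the combination (adjusted p = 0.00012). The combination exceeded radiation by 0.29 ± 0.10 (95% interval 0.08 to 0.51) without passing (adjusted p = 0.32). Without control replicate 2 or Complex 1 replicate 2 the Complex 1 call was lost (adjusted p = 0.085 and 0.061).

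The levels of the other subunits were also set against Cybb. The ratio of Cyba to Cybb FPKM was 6.24 ± 0.462 in Complex 1, 5.92 ± 0.833 in irradiated, 5.81 ± 0.328 in combination and 7.15 ± 0.463 in control tumours (SD, n = 3 each). All irradiated and combination libraries lay below the controls in this ratio. The ratio of Ncf1 to Cybb was 0.688 ± 0.103 in Complex 1, 0.769 ± 0.162 in irradiated, 0.693 ± 0.0666 in combination and 0.65 ± 0.0611 in control tumours, with overlapping groups. The ratio of Ncf4 to Cybb was 1.04 ± 0.167, 0.821 ± 0.122, 0.89 ± 0.0151 and 0.884 ± 0.0473 in the same order, with overlapping groups. Of 14 partners of the complex and other oxidases, 6 were expressed enough to test. With radiation 2 rose and with the combination 4, with none lower, and edgeR called 0 with Complex 1 (1 had an unadjusted p under 0.05). Of all tested genes, 7.39% rose with radiation, 11.9% with the combination and 0.717% with Complex 1. Rac2, the GTPase that activates the oxidase in leukocytes, rose by 0.92 ± 0.19 with radiation and by 1.33 ± 0.19 with the combination (adjusted p = 0.0091 and 0.00054). Prkcd, a kinase that phosphorylates Ncf1, rose by 0.26 ± 0.08 and 0.39 ± 0.08 in the same comparisons (adjusted p = 0.041 and 0.0037). Hvcn1, the proton channel that balances the charge of the burst, rose by 1.04 ± 0.24 with the combination (adjusted p = 0.0075). In Hvcn1, 41.5% of the 31-base sequences occur in another gene, so its value is uncertain.

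The bases upstream of Cybb and Ncf1 are shown because only their windows, of those available, held interferon-type motifs. The pair was picked by motif and not by likeness of level. With each group's mean removed, Cybb had r = 0.27 with Ncf1 and 0.78 with Cyba. RefSeq's promoter table (GRCm38.p6) matched 6 of the 9 genes. The 250 bases before the annotated start are given 5′ to 3′ on the gene's strand, at chrX:9469325-9469574 (minus strand) for Cybb and chr5:134229626-134229875 (minus strand) for Ncf1, in the coordinates of that build. Capitals mark matches, on either strand, to the interferon-stimulated response element (ISRE), the gamma-activated site (TTCNNNGAA), the PU.1 core, the TATA box or the kappa B consensus.
Cybb: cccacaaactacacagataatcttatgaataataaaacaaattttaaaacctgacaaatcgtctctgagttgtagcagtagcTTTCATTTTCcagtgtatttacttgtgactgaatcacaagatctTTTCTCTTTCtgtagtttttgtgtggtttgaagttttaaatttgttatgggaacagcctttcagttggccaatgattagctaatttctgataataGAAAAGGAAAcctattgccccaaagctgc
Ncf1: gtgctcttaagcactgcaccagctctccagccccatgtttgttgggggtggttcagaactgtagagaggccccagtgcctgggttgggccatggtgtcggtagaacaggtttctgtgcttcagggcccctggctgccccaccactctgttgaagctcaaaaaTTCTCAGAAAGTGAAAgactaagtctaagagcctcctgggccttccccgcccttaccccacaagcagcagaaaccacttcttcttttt
Cybb held 3 ISRE matches, with first bases at -168, -124 and -29 from the start. Ncf1 held 1, at -82, which overlaps a match to TTCNNNGAA that begins at -88. Of the 32536 distinct windows of this length in the table, 2.98% hold an ISRE and 7.04% hold TTCNNNGAA. The windows of Cyba, Ptgs2, Ptges and Acod1 held neither. These matches are letters only and say nothing of binding.

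**Figure D2:**
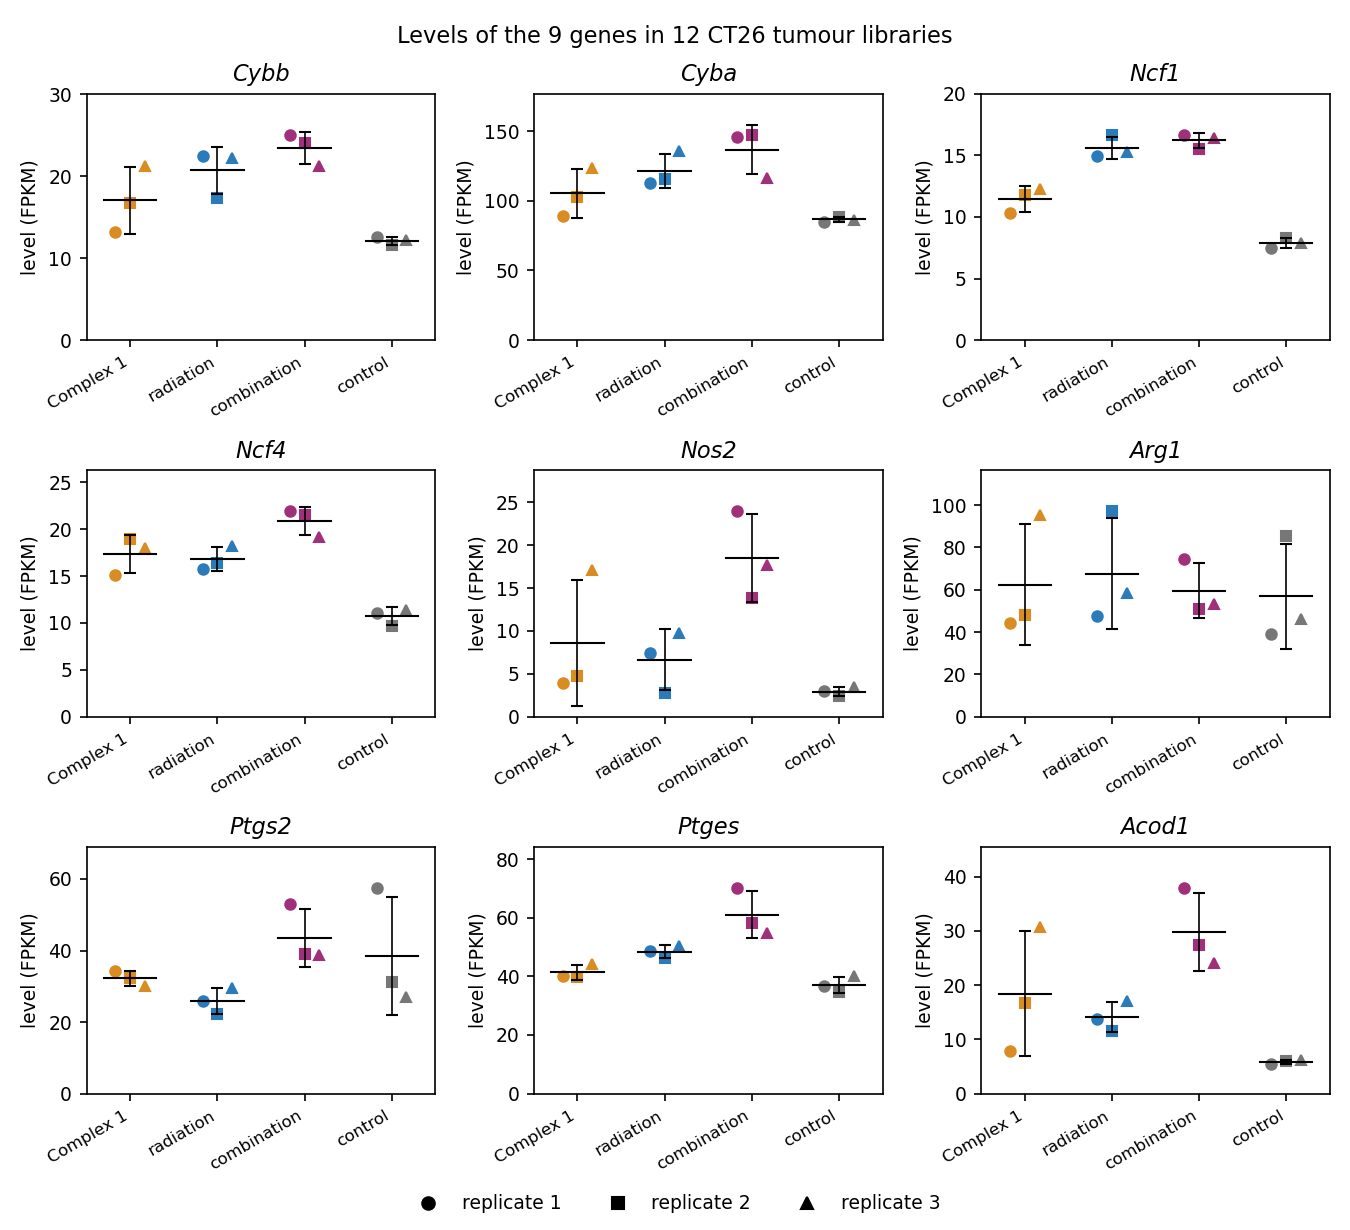
Level in FPKM (y axis, from 0) of each of the 9 genes in every library, by group (x axis); lines are means and bars ± 1 SD of 3 libraries, and the symbol gives the replicate number. The oxidase subunits lie above all controls in all treated groups, while Arg1 libraries range from 39.3 to 97.1 FPKM with overlap between all groups.

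Nos2 and Acod1 changed most in size and varied most between libraries of a group. Nos2, inducible nitric oxide synthase (ENSMUSG00000020826, chromosome 11, 78811613 to 78851080, plus strand), had 3.91, 4.77 and 17.1 FPKM in Complex 1 tumours and 7.45, 2.77 and 9.72 FPKM in irradiated tumours. It had 23.9, 13.9 and 17.7 FPKM in combination tumours and 2.96, 2.42 and 3.46 FPKM in control tumours. Each combination library was above every irradiated and control library. The 17.1 FPKM of Complex 1 replicate 3 lay among the combination libraries, and the 2.77 FPKM of radiation replicate 2 among the controls. Nos2 rose with the combination by 2.60 ± 0.53, or 6.08-fold (adjusted p = 0.0041). The difference was 1.52 ± 0.53 with Complex 1 (adjusted p = 0.25) and 1.15 ± 0.53 with radiation (adjusted p = 0.18). Without Complex 1 replicate 3 the Complex 1 difference was 0.52, and the radiation difference passed at 1.15 (adjusted p = 0.043). With that library and radiation replicate 2 both left out, the radiation difference was 1.52 (adjusted p = 0.00056). Nos2 in the combination then exceeded Complex 1 by 2.08 (adjusted p = 8.9e-05) and radiation by 1.08 (adjusted p = 0.047). This setting was added after seeing the data. The libraries left out held the most distant Nos2 values of their groups, so the SE shrinks by the choice itself (0.53 to 0.21 for radiation against control). No conclusion is drawn from these p-values.

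Acod1, the itaconate-making enzyme (ENSMUSG00000022126, chromosome 14, 103284413 to 103294009, plus strand), had 7.93, 16.7 and 30.7 FPKM in Complex 1 tumours and 13.7, 11.5 and 17.0 FPKM in irradiated tumours. It had 37.9, 27.4 and 24.1 FPKM in combination tumours and 5.43, 5.96 and 6.22 FPKM in control tumours. All treated libraries lay above the controls, and the Complex 1 libraries differed 3.87-fold among themselves. Acod1 rose by 1.23 ± 0.36 with radiation (adjusted p = 0.041) and by 2.30 ± 0.36, or 4.91-fold, with the combination (adjusted p = 0.00092). With Complex 1 it differed by 1.62 ± 0.36 (adjusted p = 0.062), which was a call by DESeq2 (adjusted p = 0.0082). The radiation call did not hold with limma on log2(FPKM + 1) (adjusted p = 0.072). It was also lost without any 1 of the 3 controls, radiation replicate 1 or 3, Complex 1 replicate 2 or combination replicate 2 (adjusted p = 0.052 to 0.12). Without Complex 1 replicate 3 the Complex 1 difference was 1.02 (adjusted p = 0.17).

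The 250 bases before the start of Acod1 are shown because, among the 9 genes, its rise with the combination was second to that of Nos2, which the table does not match. They lie at chr14:103046762-103047011 (GRCm38.p6, plus strand), with capitals as above.
Acod1: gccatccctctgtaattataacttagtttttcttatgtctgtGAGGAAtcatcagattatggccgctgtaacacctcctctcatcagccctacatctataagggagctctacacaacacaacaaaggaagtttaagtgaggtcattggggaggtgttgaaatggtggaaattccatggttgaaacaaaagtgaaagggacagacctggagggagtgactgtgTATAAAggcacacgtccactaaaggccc
The window held the TATA box, searched as TATAAA, beginning at -28, and 12.3% of all windows do so at any place. It also held the PU.1 core, searched as GAGGAA, at -208, as do 23.4% of all windows. The windows of Ptgs2 and Ptges held 1 match to GAGGAA each, and those of Cybb, Cyba and Ncf1 held 0. Other forms of the PU.1 site were not searched. None of the 6 windows matched the kappa B consensus, which 7.28% of all windows hold.

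In combination tumours, Nos2 rose and Arg1 did not pass. Arg1, arginase (ENSMUSG00000019987, chromosome 10, 24791119 to 24803382, minus strand), had 44.1, 47.9 and 95.3 FPKM in Complex 1 tumours and 47.4, 97.1 and 58.5 FPKM in irradiated tumours. It had 74.4, 51.2 and 53.3 FPKM in combination tumours and 39.3, 85.3 and 46.1 FPKM in control tumours. One library stood above 80 FPKM in each group except the combination, namely Complex 1 replicate 3, radiation replicate 2 and control replicate 2, and all groups overlapped. The combination differed from control by 0.02 ± 0.35, with a 95% interval of -0.73 to 0.77 (adjusted p = 0.98). That interval spans both directions, so a change of moderate size in Arg1 was not detectable in these libraries. The differences with Complex 1 (0.11 ± 0.35) and radiation (0.22 ± 0.35) did not pass either (adjusted p = 0.93 and 0.73).

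The ratio of Nos2 to Arg1 FPKM was 0.0886, 0.0996 and 0.179 in Complex 1 tumours, 0.157, 0.0285 and 0.166 in irradiated tumours, 0.322, 0.271 and 0.331 in combination tumours and 0.0753, 0.0284 and 0.0751 in control tumours. Per length, Arg1 was thus the more abundant transcript in each of the 12 libraries, and the ratio in combination libraries lay above that in all others. The other arginase gene, Arg2, rose with the combination, by 1.25 ± 0.25 against control (adjusted p = 0.0036) and by 1.37 ± 0.25 against radiation (adjusted p = 0.025). It had 12.02, 7.95 and 7.39 FPKM in combination tumours, against 5.33, 4.76 and 6.63 FPKM in Complex 1 tumours, 3.63, 2.81 and 3.98 FPKM in irradiated tumours and 4.47, 4.21 and 2.41 FPKM in control tumours. The Complex 1 libraries also lay above all controls (0.56 ± 0.26, adjusted p = 0.39). Of the 31-base sequences of Arg2, 23.6% occur in another gene, so its count is uncertain. Among 13 genes of arginine and nitric oxide metabolism, Arg2 included and members left out, 11 were tested. With radiation 1 rose and 2 fell, where 7.39% of all tested genes rose and 5.86% fell. With the combination 2 rose and 2 fell, where 11.9% of all tested genes rose and 10% fell. Ass1, argininosuccinate synthase, which recycles citrulline to arginine, rose by 1.24 ± 0.25 and 1.71 ± 0.25 in these comparisons (adjusted p = 0.0077 and 0.00059). Its sequence is shared with other genes at 43.1% of 31-base positions, so its count is uncertain. The arginine transporter gene Slc7a1 fell by 0.46 ± 0.08 and 0.60 ± 0.08 (adjusted p = 0.0028 and 0.00025), and Odc1, which makes putrescine from ornithine, fell by 0.61 ± 0.10 and 0.49 ± 0.10 (adjusted p = 0.0026 and 0.0035), with 31.3% of its sequence shared.

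**Figure D3:**
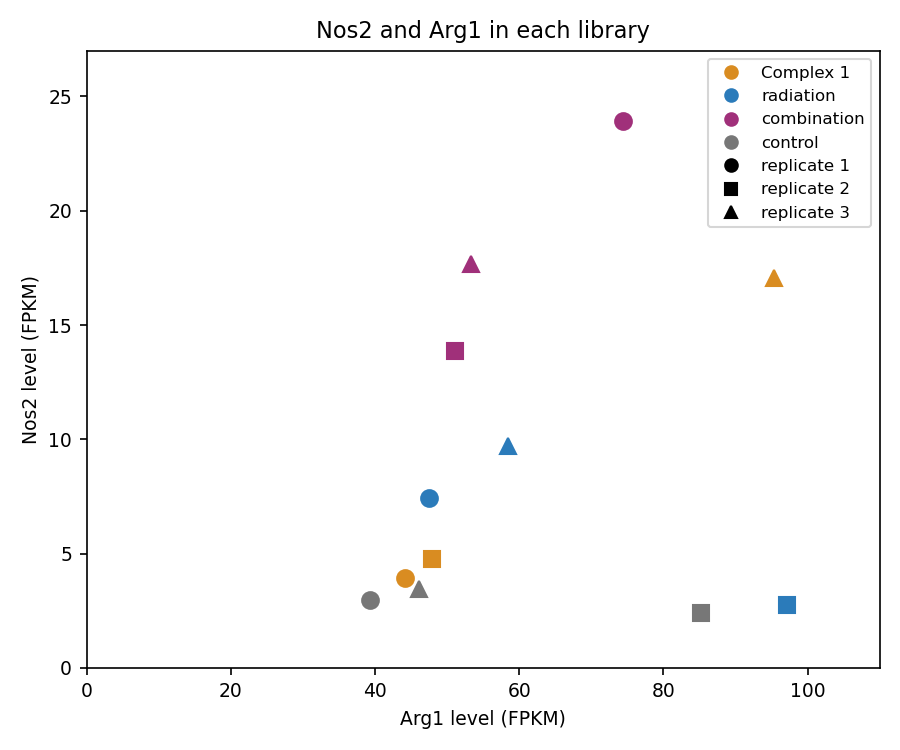
Nos2 level against Arg1 level, both in FPKM on linear axes, with a point per library coloured by group and shaped by replicate. Combination libraries lie at 13.9 to 23.9 FPKM of Nos2, and the libraries over 80 FPKM of Arg1 are 1 each from the Complex 1, radiation and control groups.

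Of the prostaglandin pair, Ptges passed the test against control and Ptgs2 did not. Ptges, the terminal prostaglandin E synthase (ENSMUSG00000050737, chromosome 2, 30779483 to 30819875, minus strand), had 40.2, 39.7 and 44.1 FPKM in Complex 1 tumours and 48.8, 46.2 and 50.5 FPKM in irradiated tumours. It had 70.2, 58.3 and 54.9 FPKM in combination tumours and 36.7, 34.6 and 40.1 FPKM in control tumours. The Complex 1 and control libraries overlapped, the irradiated libraries lay above both, and the combination libraries were above all others. Ptges rose by 0.36 ± 0.09 with radiation (adjusted p = 0.025) and by 0.67 ± 0.09 with the combination (adjusted p = 0.0004). The combination also exceeded Complex 1, by 0.54 ± 0.09 (adjusted p = 0.004). The radiation call was lost without control replicate 1 or 2 or radiation replicate 1 or 3 (adjusted p = 0.071 to 0.094).

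Ptgs2, cyclooxygenase 2 (ENSMUSG00000032487, chromosome 1, 149975782 to 149983978, plus strand), had 34.3, 32.3 and 30.1 FPKM in Complex 1 tumours and 25.8, 22.1 and 29.7 FPKM in irradiated tumours. It had 53.0, 39.0 and 38.7 FPKM in combination tumours and 57.5, 31.2 and 26.95 FPKM in control tumours. Control replicate 1 held the highest value of the 12, and the controls overlapped all treated groups. Each combination library lay above every Complex 1 and irradiated library. The differences from control were -0.29 ± 0.23 with Complex 1, -0.60 ± 0.23 with radiation and 0.13 ± 0.23 with the combination (adjusted p = 0.66, 0.1 and 0.73). The combination differed from radiation by 0.73 ± 0.23 (95% interval 0.24 to 1.23, adjusted p = 0.27). Without control replicate 1, the combination passed against control at 0.54 (adjusted p = 0.032) and against radiation at 0.73 (adjusted p = 0.028), and without control replicate 3 radiation passed against control at -0.81 (adjusted p = 0.032).

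The ratio of Ptges to Ptgs2 FPKM was 1.17 to 1.47 in Complex 1, 1.7 to 2.09 in irradiated, 1.33 to 1.5 in combination and 0.639 to 1.49 in control tumours, so that irradiated libraries lay above all others. Of 21 further prostaglandin and eicosanoid genes, 14 were tested. With radiation 5 rose and 1 fell, with the combination 5 rose and 1 fell, while edgeR called 0 with Complex 1 (2 had an unadjusted p under 0.05). Of all tested genes, 7.39% rose and 5.86% fell with radiation, and 11.9% rose and 10% fell with the combination. With Complex 1, 0.717% of all tested genes rose, and 1706 of the 13668 had an unadjusted p under 0.05. Hpgds, the prostaglandin D synthase of leukocytes, rose by 0.92 ± 0.14 with radiation and 0.72 ± 0.14 with the combination (adjusted p = 0.0017 and 0.0029). Alox5, the lipoxygenase that starts leukotriene synthesis, rose by 0.81 ± 0.16 and 0.61 ± 0.16 (adjusted p = 0.0066 and 0.016). Its activating protein gene Alox5ap rose by 0.55 ± 0.12 and 0.63 ± 0.12 (adjusted p = 0.012 and 0.003). Tbxas1, thromboxane synthase, rose by 0.69 ± 0.15 and 0.52 ± 0.15 (adjusted p = 0.012 and 0.027).

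Adding Complex 1 to radiation moved no member past the test, and adding radiation to Complex 1 moved 2. In combination against radiation, 0 of 9 passed edgeR's test and 0 that of DESeq2, where 0.615% of all tested genes rose by edgeR. An unadjusted p under 0.05 was found for 5 members (Ncf4, Nos2, Ptgs2, Ptges and Acod1) and for 1411 of the 13668 tested genes. These 5 genes were those whose combination libraries all lay above the irradiated ones, as 10.5% of all tested genes did. When only these 2 groups were fitted, Acod1 passed (1.06, adjusted p = 0.038). Without control replicate 1, Ptgs2 did. In combination against Complex 1, Ncf1 (0.48 ± 0.08, adjusted p = 0.0032) and Ptges rose, where 4.73% of all tested genes did. The count of members called was 6 without Complex 1 replicate 3, with Cyba, Cybb, Nos2 and Acod1 added, and 4 by DESeq2. Calls over all tested genes, in either direction, were then 1884 and 1753, against 1364. In the same comparison 5 members lay above all Complex 1 libraries, as 16.5% of all tested genes did. The interaction asks whether the effect of the combination differs from the sum of both treatments on the log2 scale. By edgeR 0 of 9 members and 0% of all tested genes passed, and by DESeq2 0 members. An unadjusted p under 0.05 was found for 600 of the 13668 tested genes, 3 members among them. Those 3 were Ncf1 (-0.48 ± 0.11), Ncf4 (-0.37 ± 0.14) and Ptgs2 (1.02 ± 0.32), each with an adjusted p of 1.

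In order of mean level, control was lowest and the combination highest for 7 of the 9 genes, the exceptions being Arg1 and Ptgs2. Between them, irradiated tumours lay above Complex 1 tumours for Cybb, Cyba, Ncf1 and Ptges, and below them for Ncf4, Nos2 and Acod1. Of these neighbouring pairs of means, those that passed were radiation over Complex 1 for Ncf1, Complex 1 over control for Ncf1, and radiation over control for Ncf4 and Acod1. For Arg1 the order was radiation, Complex 1, combination and control from high to low, and for Ptgs2 combination, control, Complex 1 and radiation, with no neighbours passing in either gene.

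Some markers of cells that could carry these transcripts moved with the treatments too. Because the tissue is bulk, more cells of a type and more RNA per cell cannot be told apart. The 14 macrophage and monocyte genes had a summed level of 1516 to 1653 FPKM in Complex 1, 2180 to 2366 FPKM in irradiated, 2206 to 2393 FPKM in combination and 1069 to 1271 FPKM in control tumours. Of these 14, 1 rose with Complex 1, 10 with radiation and 11 with the combination, where 0.717%, 7.39% and 11.9% of all tested genes did. None of the 14 was at 0 in any library. Csf1r, Mrc1 and Cd14 passed in none of these comparisons. Lyz2, C1qa, C1qb and C1qc make up most of the summed level, with mean Lyz2 at 577 FPKM in control and 1239 FPKM in irradiated tumours. Shares of the sum thus rest largely on those genes. Cybb was 1.08 ± 0.215% of that sum in Complex 1, 0.921 ± 0.122% in irradiated, 1.03 ± 0.0527% in combination and 1.03 ± 0.106% in control tumours. Nos2 was 0.533 ± 0.433%, 0.293 ± 0.149%, 0.804 ± 0.194% and 0.251 ± 0.0652% in the same order, and Acod1 was 1.16 ± 0.673%, 0.623 ± 0.0989%, 1.3 ± 0.257% and 0.498 ± 0.0781%. Against macrophage genes, the share of Cybb thus overlapped between all groups, and the shares of Nos2 and Acod1 in all combination libraries lay above those in all irradiated and control libraries and overlapped with Complex 1 libraries. The shares of Cyba, Ptgs2, Ptges and Ncf4 went the other way in irradiated tumours. Cyba was 5.18 to 5.73% in irradiated and 5.29 to 6.52% in combination tumours, against 6.67 to 8.08% in control tumours. Ptgs2 was at most 1.25% in irradiated and 2.21% in combination tumours, against at least 2.52% in control tumours. Ptges was 2.1 to 2.24% in irradiated tumours, against 2.82 to 3.75% in control tumours, which the combination tumours overlapped (2.49 to 2.93%). Ncf4 was 0.723 to 0.769% in irradiated tumours, against 0.791 to 1.07% in control tumours, which the combination tumours also overlapped (0.87 to 0.952%). For Ncf1 and Arg1 every treated group overlapped the controls. These shares were not tested.

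The 12 neutrophil genes summed to 93.7 to 202 FPKM in Complex 1, 11.2 to 36.7 FPKM in irradiated, 251 to 415 FPKM in combination and 11.6 to 20.6 FPKM in control tumours. Of the 7 tested, 6 rose with Complex 1, 1 with radiation and 7 with the combination, where 0.717%, 7.39% and 11.9% of all tested genes did. S100a8 and S100a9 make up most of that sum, and the defining markers Ly6g, Ngp and Cxcr1 were at 0 in 6 of 12 libraries each. The 12 T and NK cell genes summed to 36.8 to 110 FPKM in Complex 1, 65.7 to 127 FPKM in irradiated, 140 to 187 FPKM in combination and 35.8 to 51.7 FPKM in control tumours, with 110 FPKM in Complex 1 replicate 3 and 65.7 FPKM in radiation replicate 2. These are the libraries in which Nos2 stood high and low in its group. Ifng, the main inducer of Nos2, was at 3.25 FPKM in Complex 1 replicate 3, against 0.77 and 0.69 FPKM in the other Complex 1 libraries, and at 0.77 FPKM in radiation replicate 2, against 2.58 and 2.49 FPKM in the other irradiated libraries. In the other groups the order differed. Ifng was lowest of the combination libraries in replicate 1 (2.10 FPKM, against 3.05 and 3.40 FPKM), where Nos2 was highest. Of the controls it was highest in replicate 2 (1.78 FPKM, against 0.59 and 0.83 FPKM), where Nos2 was lowest. The 8 fibroblast genes summed to 224 to 283 FPKM in Complex 1, 241 to 275 FPKM in irradiated, 295 to 303 FPKM in combination and 206 to 233 FPKM in control tumours. Of the 7 tested, 1 rose with the combination (Dcn). None of the 4 endothelial genes tested passed against control, nor did the 1 dendritic cell gene tested (Itgax). No B cell gene was expressed enough to test. The part of any of these cells in the changes of the 9 genes was not tested. The epithelial markers of the tissue were mixed. Krt20 had 66.6 to 148 FPKM, while Epcam reached only 0.18 FPKM and Cldn3 was at 0 in all 12 libraries.

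**Figure D4:**
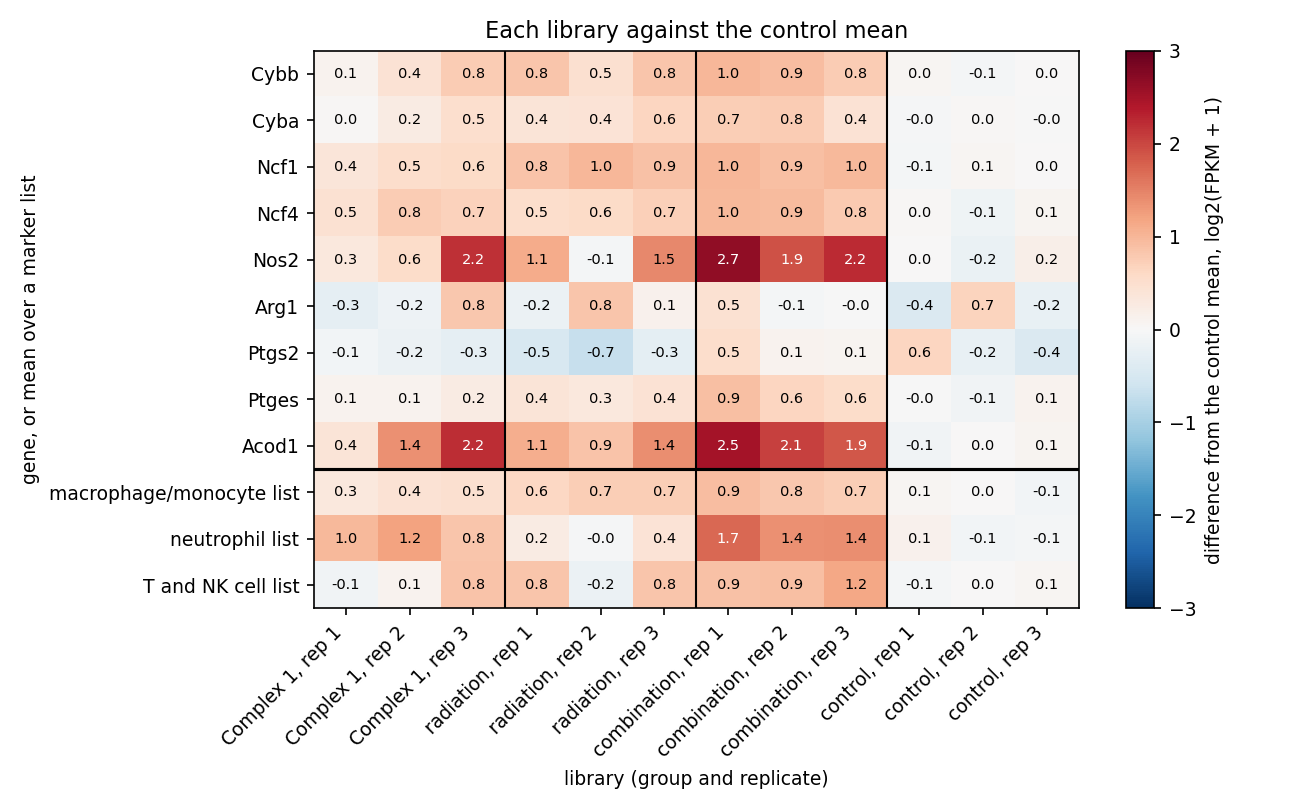
Difference of each library (x axis) from the control mean in log2(FPKM + 1), for the 9 genes and, below the line, as the mean over the macrophage and monocyte, neutrophil, and T and NK cell lists (y axis); red is higher and blue lower, and each cell prints its value. Nos2 and Acod1 are highest in the combination libraries and in Complex 1 replicate 3.

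The signals known to induce these genes rose in part. Of 20 inducing cytokines, receptors and transcription factors, 4 rose with Complex 1, 8 with radiation and 12 with the combination, and none fell. Of all tested genes, 0.717%, 7.39% and 11.9% rose in the same order. Il1b, which induces Ptgs2 and Ptges, rose by 2.13 ± 0.38 with Complex 1 and 3.01 ± 0.39 with the combination (adjusted p = 0.022 and 0.00026). Spi1, the PU.1 factor of myeloid cells, rose in all 3 comparisons against control, by 0.56 ± 0.12, 0.64 ± 0.12 and 0.86 ± 0.12 (adjusted p = 0.048, 0.0045 and 0.00035). Tlr2, a receptor for bacterial lipopeptides, rose by 0.69 ± 0.14, 1.09 ± 0.13 and 1.45 ± 0.13 (adjusted p = 0.036, 0.00072 and 5.9e-05). Il4ra, the receptor chain for the Arg1 inducers IL-4 and IL-13, rose by 0.50 ± 0.09 with radiation and 0.76 ± 0.09 with the combination (adjusted p = 0.0045 and 0.00018). Il6 rose with the combination by 3.17 ± 0.57 (adjusted p = 0.0018), where it had 4.96, 1.21 and 1.27 FPKM, against 0.29, 0.19 and 0.3 FPKM in control tumours. Those control levels rest on only 13, 9 and 13 counts. Of 15 other suppressor genes tested, edgeR called 0 with Complex 1 (4 had an unadjusted p under 0.05), 5 rose with radiation and 10 with the combination. With Complex 1, 1706 of the 13668 tested genes had an unadjusted p under 0.05. Socs3, a feedback inhibitor of cytokine signalling, had 91.7, 68.5 and 70.1 FPKM in combination tumours, against 34.5, 32.0 and 43.5 FPKM in irradiated tumours and 35.3, 28.9 and 31.4 FPKM in control tumours, and rose by 1.22 ± 0.14 and 1.05 ± 0.14 against control and radiation (adjusted p = 0.00013 and 0.005). Wfdc17, a protein secreted by activated macrophages, rose by 1.00 ± 0.19 with radiation and 1.57 ± 0.19 with the combination (adjusted p = 0.0057 and 0.00019). Of 11 tested genes of aconitate and itaconate metabolism, 2 fell with radiation and with the combination, where 5.86% and 10% of all tested genes did. None passed with Complex 1 (edgeR, 0 at unadjusted p under 0.05). The 2 that fell were Cs, citrate synthase (-0.20 ± 0.06 and -0.21 ± 0.06, adjusted p = 0.035 and 0.019), and Idh2 (-0.31 ± 0.07 and -0.29 ± 0.07, adjusted p = 0.012 and 0.0094).

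Genes whose log2(FPKM + 1) followed a member most closely over the 12 libraries are given as a description, since the libraries share their groups and the genes were picked from all tested ones for likeness. Nearest to Cybb were Slc43a2, Mpeg1 and Unc93b1 (Pearson r = 0.98 to 0.99), nearest to Cyba were Fcgr1, Psmb3 and Pik3ap1 (0.97), and nearest to Ncf1 were Tlr13, Lgmn and Tgfbr2 (0.98). For Ncf4 they were Dok3, Pirb and Lcp1 (0.97 to 0.98), and for Ptges Fgf7, Gopc and Nacc2 (0.96). Nos2 was nearest to Fgd3, Ccdc88b and Nr1h3 (0.96 to 0.97), and Acod1 to Ikzf1, Arhgap30 and Ccdc88b (0.97). Arg1 (Zswim7, Pmp22 and Nbn, 0.85 to 0.91) and Ptgs2 (Plk2, Lrrc8d and Ddi2, 0.88 to 0.90) had looser neighbours. Among the members themselves, Acod1 and Nos2 had r = 0.93, or 0.82 once each group's mean was removed, and Arg1 with Nos2 had r = 0.17.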

How the data were processed

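The deposited table holds raw counts per gene and library and, beside them, FPKM made by the authors from these counts and the exonic gene length, rounded to 2 decimals. Recomputing FPKM gave the deposited values within 0.005. The submitters' processing notes name mm39, DESeq2, HTSeq 2.0.1 and STAR 2.5.3a, without their roles. No source used here gives the strand setting. The exonic length, another column of the deposited table, was used only for FPKM.

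The test took the 13668 genes that reached 1 FPKM in 3 or more of the 12 libraries, with edgeR 4.0.16 (R 4.3.3, TMM scaling, quasi-likelihood test, a mean per group, all 12 libraries), with BH adjustment. The SE is the log2 fold change over the root of F, and 95% intervals use the fit's degrees of freedom. Libraries of a group differed beyond counting noise (chi-square per degree of freedom at least 5.36). Same-numbered libraries were not paired, as the closing section gives. Alternatives were DESeq2 1.42.0, limma 3.58.1 on log2(FPKM + 1) or + 0.1, other scalings and filters, only the groups compared, a replicate block, and leaving out each library. The comparison of radiation with Complex 1, edgeR's filterByExpr and leaving out Complex 1 replicate 3 with radiation replicate 2 were added after seeing the data. The code was tested on simulated data. Sequence sharing was computed with 31-base sequences of GENCODE M21 transcripts, of which no coordinates are used.

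The members and lists were chosen with earlier results of these data known. All 9 members are named, and from each list up to 4 passing genes with the smallest p in a comparison could be. The 3 most alike genes of each member exclude predicted genes, pseudogenes and receptor segments. A further gene was left out of the lists and is not reported here.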

Additional observations from a re-analysis of the deposited data

How the results depend on the processing

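Scaling changed no member's direction or call, except that Acod1 passed with Complex 1 under library totals (adjusted p = 0.049). The combination count of 7 against control held under all alternatives without left-out libraries, and ran from 7 to 8 over single left-out libraries. Over these, the count ran from 0 to 4 for Complex 1 and 3 to 7 for radiation against control, 0 to 1 for combination against radiation, 2 to 6 for combination against Complex 1, 1 to 2 for radiation against Complex 1 and 0 to 0 for the interaction. Leaving out Complex 1 replicate 3 and radiation replicate 2 together was a setting added after seeing the data. The counts were then 1 for combination against radiation, 6 for combination against Complex 1 and 3 for radiation against Complex 1. With only the groups compared, 0 passed for Complex 1 against control and 1 for combination against radiation. DESeq2 gave 4 for combination against Complex 1. With no filter, edgeR's prior degrees of freedom became infinite, so that genes share 1 trend of spread, and 6 (Complex 1 against control), 4 (combination against radiation), 7 (combination against Complex 1), 5 (radiation against Complex 1) and 2 (interaction) passed. filterByExpr, with 16227 genes, gave the same members as the FPKM filter in every comparison. Over all tested genes, calls for Complex 1 against control were 326 with DESeq2, 803 with no filter, 45 with only the groups compared, 69 without both libraries and 4 to 236 over left-out libraries, against 111. For combination against radiation they were 185, 529, 69, 56 and 25 to 100, against 89. For combination against Complex 1 no filter gave 2285, leaving out both 2156 and single libraries 582 to 1884, against 1364. For radiation against Complex 1 no filter gave 2107, only the groups compared 632 and single libraries 398 to 1443, against 1262. For the interaction DESeq2 gave 6 and no filter 163, against 0. For radiation against control single libraries gave 865 to 2014, against 1811. Library totals gave 1932 higher and 903 lower for the combination (1620 and 1373 with TMM) and 1157 and 587 for radiation (1010 and 801).

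Signs turned in differences that did not pass with all libraries; of the values below, 1 passed (0.54 for Ptgs2, adjusted p = 0.032). Arg1 ran from -0.34 to 0.53 (Complex 1 against control), -0.13 to 0.64 (radiation against control), -0.19 to 0.44 (combination against control), -0.41 to 0.15 (combination against radiation) and -0.29 to 0.36 (combination against Complex 1) over left-out libraries. With both libraries left out these were -0.34 (Complex 1), -0.13 (radiation), 0.15 (combination against radiation) and 0.36 (combination against Complex 1). Arg1 in combination against control was -0.01 with no filter, and against Complex 1 0.00 with limma at either pseudocount. Ptgs2 ran from -0.49 to 0.12 with Complex 1 and -0.08 to 0.54 with the combination, and Ncf1 in combination against radiation from -0.00 to 0.08. The cause was not tested.

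Numbers did not pair libraries: deviations of same-numbered libraries correlated at -0.204 to 0.164, with 4 of 18 pairs over 0.1, and 4 of 12 libraries were closest to their own number. With a replicate block, Nos2 passed in combination against Complex 1 (1.28, adjusted p = 0.049), which made 3 members there, and no other call changed.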
